A study of Mus musculus with 40 samples.

Results

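The comparison set the injured hemisphere of peptide-treated mouse pups after a combined insult against the brains of pups that had received the peptide alone. It used 10 of the 40 Affymetrix arrays of the study, chosen by their labels: 5 of the injured hemisphere with IDR and 5 of IDR. The study asked about neuroprotection by the immunomodulatory peptide IDR-1018 (IDR below), a synthetic host defence peptide, in C57/Bl6 mice at postnatal day 9.

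Pups of the injured hemisphere with IDR group had received IDR 4 h before lipopolysaccharide (LPS), then hypoxia-ischaemia (HI) 14 h after LPS, and the left hemisphere was taken 6 h after HI. The uninjured hemisphere with IDR group was the right hemisphere under the same treatment. The injured hemisphere without peptide group had vehicle in place of IDR, with otherwise equal times. Vehicle pups and IDR pups had received vehicle or peptide only, and their brains, labelled uninjured with no hemisphere named, were removed 10 h after the dose. By these times the injured hemispheres were taken 24 h after the peptide and 20 h after LPS. The insult, the time since the peptide and the piece of brain taken therefore changed together and cannot be told apart. Nothing in the labels ties an array to an animal of its own, so p-values measure the spread between arrays, which may be technical.

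LPS, a bacterial cell wall component, is sensed through Cd14 and Toll-like receptor 4, mainly on microglia and blood vessel cells in the brain, and drives nuclear factor kappa B (NF-kB), cytokine and interferon genes. LPS given before HI makes the neonatal brain more sensitive to it. HI limits the supply of oxygen and glucose and is followed by stress gene expression, glial reaction and loss of neurons in the injured hemisphere. Microglia, the resident macrophages of the brain, respond by losing purinergic sensors such as P2ry12 and by making chemokines, which attract leukocytes.

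Values are log2 signals, and a difference is the mean of the injured hemisphere with IDR minus that of IDR, with its standard error from limma. A gene is called at an adjusted p under 0.05 over all 19937 genes tested. Some arrays stood apart. Injured replicates 3 and 4 and IDR replicate 5 had mean levels of 10.70, 10.67 and 10.59 over 55 ribosomal protein genes, against 10.24 to 10.38 on the other 7 arrays. Injured replicates 3 and 4 correlated with IDR replicate 5 at 0.995 to 0.996 over all genes, above their correlation of 0.99 to 0.993 with the other injured arrays. The same pair of injured arrays carried Y-linked signal with low Xist, while the other 3 injured arrays had high Xist. In the IDR group 4 of 5 arrays had Y-linked signal and 1 had high Xist. What set the 3 arrays apart was not tested. Results are also given within each kind of array, as 3 injured against 4 IDR arrays low in ribosomal protein genes and as 2 injured against 1 IDR array high in them. All 3 low injured arrays had high Xist, while of the 4 low IDR arrays only replicate 2 did. The 3 high arrays all carried Y-linked signal. Differences within the low arrays, and counts without the 3 high arrays, therefore also set unlike Xist and Y-linked signal against each other.

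In the injured hemisphere with IDR, 702 genes (3.52% of those tested) were higher and 469 (2.35%) were lower than in IDR, 1171 (5.87%) in all. Counts given below for lists of genes are to be read against these shares. The rises were larger than the falls. Among called genes, 197 were higher by more than 1.5-fold and 16 were lower by as much, and 51 against 0 passed 2-fold. The 5 injured arrays lay wholly above the 5 IDR arrays for 871 genes (4.37%) and wholly below for 641 (3.22%). Centring each array on its median turned the split to 523 higher and 739 lower, with the median of all genes at -0.05 in place of -0.01. Without the 3 arrays high in ribosomal protein genes, 1205 genes were higher and 852 lower, and 1040 of the 1171 calls were shared. List counts given below without these arrays are to be read against these larger totals. The count of higher genes was 456 without IDR replicate 1. The count of lower genes was 304 without injured replicate 1, and 249, 265, 257 and 241 without IDR replicates 1, 2, 3 and 4 in turn.

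**Figure D1:**
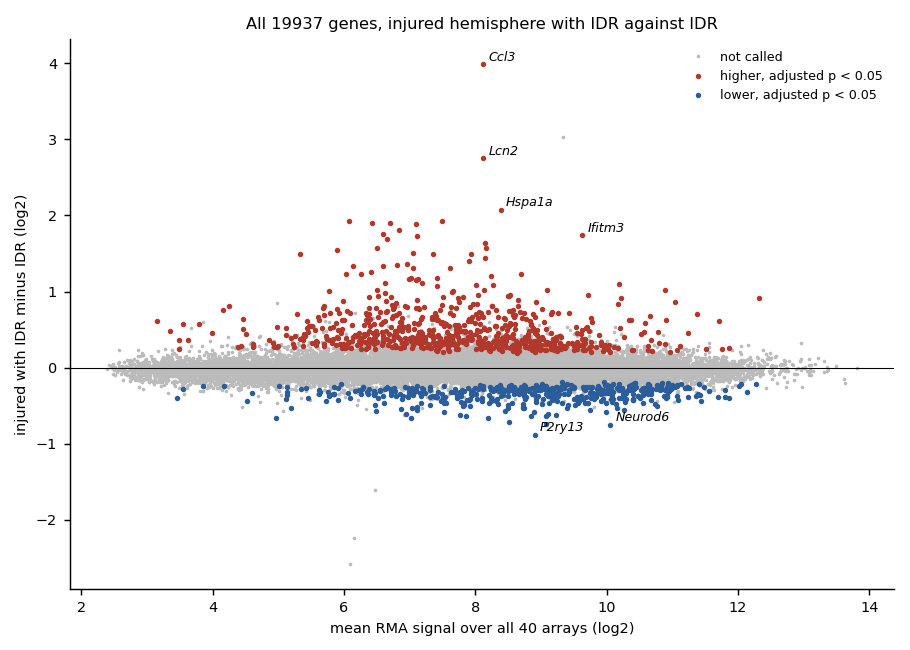
The mean log2 signal over all 40 arrays (x axis) is plotted against the log2 difference of the injured hemisphere with IDR minus IDR (y axis) for each of the 19937 genes, with the 702 higher calls in red and the 469 lower calls in blue. Ccl3 at 3.98 and Lcn2 at 2.75 stand above the other called genes, and no lower call passes -0.88. The large grey differences of either sign are sex-linked or other genes that varied within a group and were not called.

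Chemokine ligands held the largest difference. Ccl3, a chemokine made by activated microglia and macrophages, had 11.01, 11.93, 10.66, 10.49 and 11.55 in the injured hemisphere with IDR, against 7.08, 7.28, 6.81, 7.31 and 7.25 in IDR. Every injured array lay more than 3 log2 units above every IDR array. The difference was 3.98 ± 0.23 (15.8-fold, adjusted p = 2.11e-06), and it was 4.38 and 3.32 within the arrays low and high in ribosomal protein genes. Ccl2, the main attractant of monocytes, had 7.78, 8.82, 7.71, 8.07 and 7.73 in the injured hemisphere with IDR, against 6.12, 5.98, 6.27, 5.96 and 6.24 in IDR. Injured replicate 2 was the highest, and the difference was 1.91 ± 0.18. Ccl9, a ligand of Ccr1, ran from 7.85 to 8.77 in the injured hemisphere with IDR and from 6.37 to 6.61 in IDR, a difference of 1.72 ± 0.13. Of 24 chemokines measured, 11 were higher and 0 lower, with a median difference of 0.27 against -0.01 over all genes. Ccl12 rose by 1.55 ± 0.11 and Cxcl10, an interferon-inducible attractant of T cells, by 1.23 ± 0.16. The neutrophil attractants Cxcl1 and Cxcl2 differed by 0.11 and 0.03 and were not called. The count was also 11 without the 3 arrays high in ribosomal protein genes.

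Among cytokines, 6 of 20 were higher and 0 lower. The count was 3 with Xist as a covariate, without injured replicate 5 and without each of the 5 IDR arrays in turn. Il1a, an alarm cytokine that acts through the interleukin 1 receptor, had 6.55, 8.45, 6.50, 6.77 and 7.67 in the injured hemisphere with IDR, against 5.36, 5.32, 5.29, 5.12 and 5.22 in IDR. The injured arrays spread over about 2 log2 units around a difference of 1.92 ± 0.30. Csf1, the growth factor of microglia, rose by 0.83 ± 0.11 and Tnf by 0.78 ± 0.12. Il1b had 5.94, 7.24, 5.76, 6.08 and 6.34 in the injured hemisphere with IDR, against 5.51, 5.44, 5.57, 5.32 and 5.47 in IDR. Its call (0.81 ± 0.21, adjusted p = 0.0399) was lost under 10 of 20 alternative settings. Il6 and Tgfb1 rose by 0.61 and 0.39 (adjusted p = 0.0297 and 0.0332), and Il10 and Il12a differed by -0.05 and 0.08 without a call.

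Receptors and feedback genes of the interleukin 6 and interleukin 1 families rose with the ligands, with 8 of 15 higher and 0 lower. Osmr, the oncostatin M receptor, rose by 1.20 ± 0.11, from 8.52 to 9.21 across the injured arrays and 7.53 to 7.86 across the IDR arrays. Its downstream factor Stat3 rose by 0.53 ± 0.07 and the feedback inhibitor Socs3 by 0.64 ± 0.12 on the probe set used, and a probe set of Socs3 not used gave 0.10. Of 17 NF-kB targets, 7 were higher and 0 lower. Cd14, the LPS co-receptor, had 7.68, 8.84, 7.28, 7.61 and 8.05 in the injured hemisphere with IDR, against 6.27, 6.24, 6.24, 6.11 and 6.15 in IDR. The IDR arrays spread over less than 0.2 units, and the difference was 1.69 ± 0.22. Tlr2 rose by 0.75 ± 0.10 and the adhesion molecule Icam1 by 0.79 ± 0.11. Ptgs2, the inducible cyclooxygenase, reached 9.21 on injured replicate 2 and 7.57 on replicate 4, and its call (1.01 ± 0.26, adjusted p = 0.0399) was lost under 10 of 21 alternatives. The inhibitors Nfkbia and Tnfaip3 differed by 0.36 and 0.31 without a call.

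**Figure D2:**
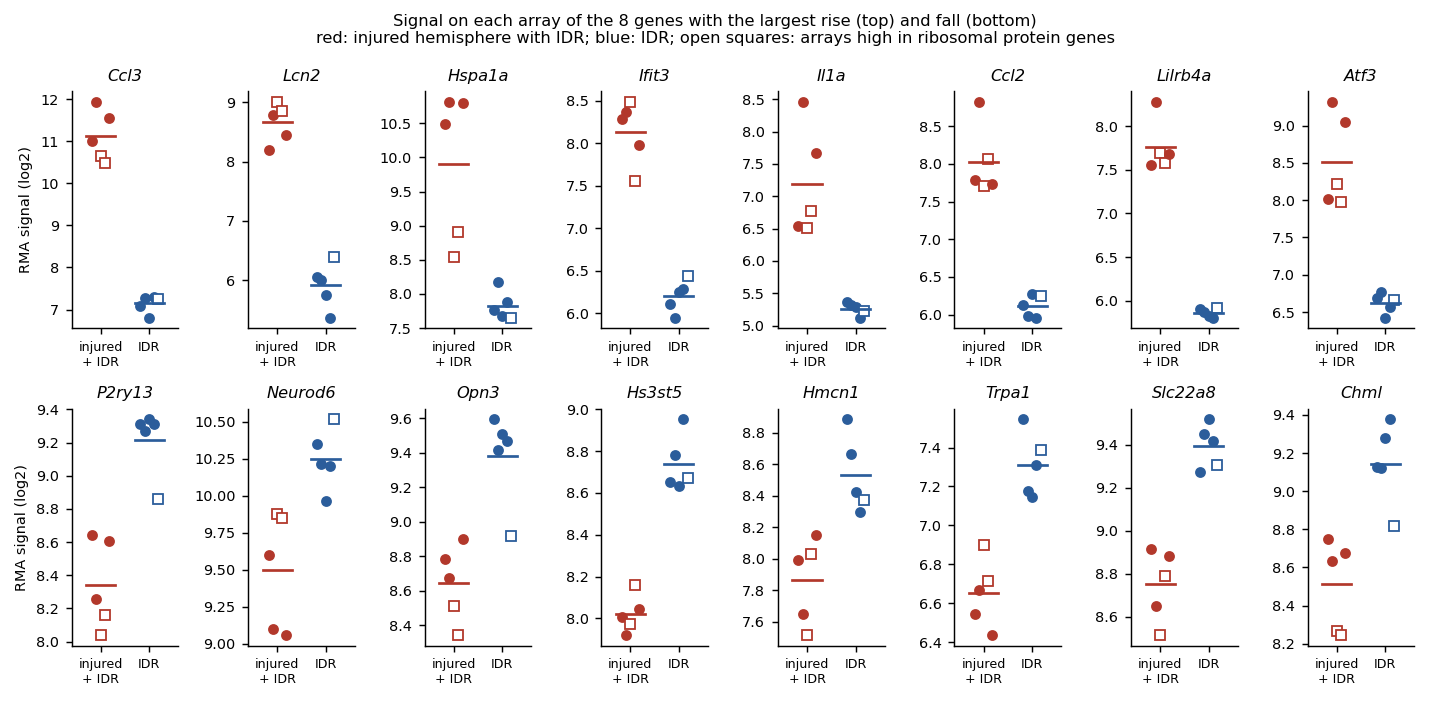
Each panel gives the log2 signal (y axis) of a gene on the 5 arrays of the injured hemisphere with IDR (red, left) and the 5 of IDR (blue, right), with bars at the group means and open squares for the 3 arrays high in ribosomal protein genes. The 16 genes were chosen among called genes whose groups do not overlap. In the panels of Ccl3, Hspa1a and Neurod6 the injured open squares lie nearest to the IDR arrays.

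The acute phase gene Lcn2, an iron-binding lipocalin secreted by astrocytes and vessel cells, had 8.20, 8.79, 9.00, 8.86 and 8.46 in the injured hemisphere with IDR, against 6.06, 6.00, 5.75, 5.37 and 6.38 in IDR. It was 6.72-fold higher (2.75 ± 0.18), and the difference was 2.69 and 2.55 within the low and high arrays. Of 16 acute phase genes, 6 rose and 0 fell, among them the protease inhibitor Serpina3n by 0.96 ± 0.15, Saa3 by 0.94 ± 0.11 and the LPS-binding protein Lbp by 0.70 ± 0.10.

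Interferon-stimulated genes had 20 of 26 higher, 0 lower and a median difference of 0.51. Ifit3, an antiviral effector, had 8.28, 8.37, 8.48, 7.55 and 7.97 in the injured hemisphere with IDR, against 6.11, 5.95, 6.25, 6.28 and 6.44 in IDR. The 5 injured arrays lay at least 1 unit above all IDR arrays (1.93 ± 0.15), and its near-identical neighbour Ifit3b, at low signal, rose by 0.76, so the probes may share transcripts. Ifitm3, which blocks virus entry, had 9.74, 9.72, 10.58, 10.12 and 9.95 in the injured hemisphere with IDR, against 8.00, 8.09, 8.11, 8.19 and 9.04 in IDR. IDR replicate 5 stood apart from the other IDR arrays, and the difference was 1.74 ± 0.20. Irgm1, an interferon-inducible GTPase, rose by 1.40 ± 0.08 with the smallest adjusted p of all genes, 2.11e-06, shared with Ccl3. Ifi207, an interferon-inducible gene outside the list, rose by 1.76 ± 0.17 and Ifit1 by 1.51 ± 0.24, whereas Irf1 and Stat2 differed by -0.04 and 0.03 without a call. The list counted 18 higher without the 3 arrays high in ribosomal protein genes and 16 with Xist as a covariate.

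The promoters of Ifit3 and Ifitm3 are shown because they head the interferon list and carry its usual sequence motif. Each holds 250 bases before the start site and 50 after it in RefSeq GRCm38.p6, on the coding strand, with capitals marking each match to the interferon-stimulated response element searched on both strands as GAAA, 2 bases of any kind and GAAA. The Ifit3 window lies on the plus strand at chr19:34583279-34583578 and the Ifitm3 window on the minus strand at chr7:141010695-141010994.
Ifit3: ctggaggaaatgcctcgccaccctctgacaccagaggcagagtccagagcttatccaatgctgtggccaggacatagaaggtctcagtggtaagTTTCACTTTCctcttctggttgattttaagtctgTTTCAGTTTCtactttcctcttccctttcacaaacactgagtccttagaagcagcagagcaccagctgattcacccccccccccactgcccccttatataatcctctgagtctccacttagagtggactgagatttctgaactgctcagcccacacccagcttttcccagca
Ifitm3: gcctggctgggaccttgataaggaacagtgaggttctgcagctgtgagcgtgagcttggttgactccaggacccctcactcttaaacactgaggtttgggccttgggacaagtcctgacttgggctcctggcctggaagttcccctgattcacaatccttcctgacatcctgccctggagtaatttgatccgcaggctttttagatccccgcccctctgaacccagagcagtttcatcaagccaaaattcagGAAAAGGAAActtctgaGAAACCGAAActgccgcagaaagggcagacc
Both windows held 2 matches. Of 22 interferon genes measured and matched to a promoter, 12 (54.5%) held at least 1 match, as did 9 of the 16 that rose (56.2%), against 3.99% of all 27025 genes in the promoter table. A match describes these letters only, not a bound site.

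Stress genes rose next to inflammatory ones. Hspa1a, the inducible chaperone of the Hsp70 family, had 10.48, 10.81, 8.54, 8.90 and 10.80 in the injured hemisphere with IDR, against 7.77, 8.17, 7.68, 7.88 and 7.65 in IDR. The injured values fell into 3 above 10 and 2 below 9, the lower pair being the arrays high in ribosomal protein genes. Its difference was 2.08 ± 0.40 over all arrays, 2.82 within the low arrays and 1.07 within the high ones. The near-identical copy Hspa1b may share its probes. Of 16 heat shock genes, 6 rose and 0 fell (9 without the 3 arrays), with the small chaperones Hspb1 at 1.02 ± 0.13 and Hspb8 at 0.93 ± 0.16, and the constitutive Hspa8 differed by 0.04 without a call. The heat shock element searched on both strands as GAA, 2 bases of any kind, TTC, 2 of any kind and GAA, was in the promoters of 4 of 13 measured members (30.8%), 1 of the 6 that rose (16.7%) and 0.662% of all genes. The promoter windows of Hspa1a and Hspb1 held 0 matches.

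Atf3, a transcription factor of the integrated stress response, had 8.02, 9.31, 8.21, 7.97 and 9.05 in the injured hemisphere with IDR, against 6.69, 6.77, 6.42, 6.57 and 6.67 in IDR. Replicates 2 and 5 were the highest of the injured arrays, and the difference was 1.89 ± 0.23. In that list 8 of 23 rose and 0 fell, including the upstream factor Atf4 (0.49 ± 0.07), the phosphatase subunit Ppp1r15a (0.60 ± 0.08) and Chac1 (0.53 ± 0.09), while the amino acid genes Asns and Phgdh differed by -0.03 and 0.04 and were not called. Chac1 differed by 0.67 and 0.18 within the low and high arrays. The list counted 11 higher without the 3 arrays.

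Immediate early genes were mixed, with 5 of 28 higher and 2 lower. Without injured replicate 1 the counts were 8 and 1, and 1 was lower without injured replicates 3 or 5 and without IDR replicates 1, 2, 3 or 5. Fos had 7.19, 8.66, 7.67, 8.24 and 8.18 in the injured hemisphere with IDR, against 6.67, 6.58, 6.76, 6.44 and 6.70 in IDR (1.36 ± 0.21). Fosb rose by 1.18 ± 0.18 and Ier3 by 0.79 ± 0.10. The activity-linked genes Nr4a2 and Egr3 fell by 0.45 and 0.29, and Bdnf differed by -0.07 without a call. The call of Jun (0.65 ± 0.18, adjusted p = 0.046) was lost under 11 of 21 alternatives. The cAMP response element, searched as TGACGTCA, was in the promoters of 3 of 23 immediate early genes (13%) and 1 of the 5 that rose. In the integrated stress response list it was in 1 of 23 (4.35%) and 1 of the 8 that rose, against 2.03% of all genes. The promoter windows of Fos, Fosb and Atf3 held 0 matches and that of Ppp1r15a held 1.

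Hmox1, the haem-degrading enzyme, had 8.55, 8.65, 8.54, 8.74 and 8.48 in the injured hemisphere with IDR, against 7.37, 7.26, 6.88, 7.65 and 7.25 in IDR. Its injured arrays agreed to within 0.3 units, and the difference was 1.31 ± 0.11. The metallothionein Mt1 rose by 1.03 ± 0.18, and 4 of 16 antioxidant and metallothionein genes rose with 0 lower. Of 23 hypoxia genes, 7 rose and 0 fell, with a median of 0.14. Adm, a vasodilator peptide, rose by 0.80 ± 0.17 and the glucose transporter Slc2a1 by 0.69 ± 0.17, the call of Slc2a1 being lost under 6 of 21 alternatives. The hypoxia count was 5 without the 3 arrays high in ribosomal protein genes, 3 with Xist as a covariate, 4 without injured replicates 2, 4 or 5 and 3 without IDR replicates 1, 2, 3 or 4. In the p53 and cell death list, 10 of 19 rose and 0 fell. Gadd45b, a stress-inducible growth arrest gene, had 9.19, 9.64, 8.89, 8.71 and 9.74 in the injured hemisphere with IDR, against 7.85, 7.84, 7.81, 7.81 and 7.69 in IDR (1.44 ± 0.17). Tnfrsf12a and the death receptor Fas rose by 0.82 ± 0.10 and 0.61 ± 0.13, and the p53 targets Mdm2 and Bbc3 differed by 0.13 and 0.03 without a call.

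Myeloid activation genes had the highest median of the 38 lists, 0.72, with 22 of 26 higher and 0 lower. In tissue RNA, more or fewer cells of a type cannot be told apart from more or less RNA per cell. Lilrb4a, an inhibitory receptor of myeloid cells, had 7.55, 8.28, 7.70, 7.58 and 7.68 in the injured hemisphere with IDR, against 5.90, 5.87, 5.82, 5.80 and 5.91 in IDR. The IDR arrays spread over 0.11 units and the difference was 1.90 ± 0.12. Its near-identical copy Lilr4b rose by 1.49, and the probes may share transcripts. The scavenger receptor Msr1 rose by 1.26 ± 0.11 and, outside the list, the complement receptor C3ar1 by 1.63 ± 0.14 and Wfdc17 by 1.57 ± 0.12. Lower values included P2ry13, an ADP receptor of resting microglia, which had 8.64, 8.25, 8.04, 8.16 and 8.61 in the injured hemisphere with IDR, against 9.31, 9.27, 9.34, 9.31 and 8.86 in IDR. IDR replicate 5 was the lowest of its group, and the fall was -0.88 ± 0.13 (adjusted p = 0.00157), the largest among the named lower genes. Its neighbour P2ry12, the sensor that guides microglial processes to damage, fell by 0.63 on the log2 scale (-0.63 ± 0.11). Of 18 homeostatic microglial genes, 4 rose and 3 fell. The 3 complement genes C1qb, C1qc and C1qa rose by 0.92, 0.72 and 0.59, whereas Csf1r and Tmem119 differed by 0.02 and -0.18 and were not called.

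Neutrophil markers averaged 5.44 to 5.58 across the injured arrays and 5.26 to 5.46 across the IDR arrays, and 9 of 15 were under 6 in both groups. Of these 15, 3 rose and 0 fell, and the higher count ran from 1 to 4 over the alternatives. Il1r2 rose by 0.52 and S100a8 by 0.29 ± 0.06, and the call of Csf3r was lost under 12 of 21 alternatives. Ly6g (4.75 and 4.61 in the injured hemisphere with IDR and IDR) and Mpo (6.13 and 6.19) were not called. Monocyte markers averaged 6.85 to 7.14 in the injured hemisphere with IDR and 6.71 to 6.85 in IDR. Of 12, 2 were higher, led by Ms4a6c at 1.17 ± 0.16, and 1 was lower, Vcan, whose call was lost under 12 of 21 alternatives. Lymphocyte markers gave 0 calls of 12, with mean levels of 5.24 to 5.33 in the injured hemisphere with IDR and 5.21 to 5.45 in IDR.

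Reactive astrocyte genes rose in 20 of 30 cases with 0 lower and a median of 0.56. Emp1, a membrane protein of reactive astrocytes, had 9.63, 9.48, 9.42, 8.93 and 9.50 in the injured hemisphere with IDR, against 7.67, 7.76, 7.73, 7.97 and 8.00 in IDR (1.57 ± 0.12). The metalloproteinase inhibitor Timp1 rose by 1.31 ± 0.12 and the intermediate filament Vim by 0.62. Gfap, the classical marker, reached 10.00 ± 0.24 in the injured hemisphere with IDR and 9.52 ± 0.20 in IDR (SD, n = 5 each), and its call at an adjusted p of 0.0337 was lost under 9 of 21 alternatives. Several of these genes, such as Lcn2, Cxcl10 and Ptgs2, also stand in other lists and are made by other cells. Among markers of astrocytes at rest, 2 of 16 were higher and Dio2, the enzyme that activates thyroid hormone, was lower by 0.62 on the log2 scale (-0.62 ± 0.14), a call lost under 7 of 21 alternatives. The higher count was 1 without injured replicates 1, 2, 3 or 4 and without IDR replicates 1, 2 or 3. Of 18 proteases and their regulators, 7 rose and 0 fell, with Adamts1 at 0.79 ± 0.19 and the urokinase receptor Plaur at 0.58 ± 0.12. That count was 4 with Xist as a covariate, without injured replicate 5 and without IDR replicates 1, 3 or 4, and the call of Adamts1 was lost under 6 of 21 alternatives. Prg4, a secreted lubricin, rose by 1.81 ± 0.21 but by 2.25 and 0.76 within the low and high arrays.

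**Figure D3:**
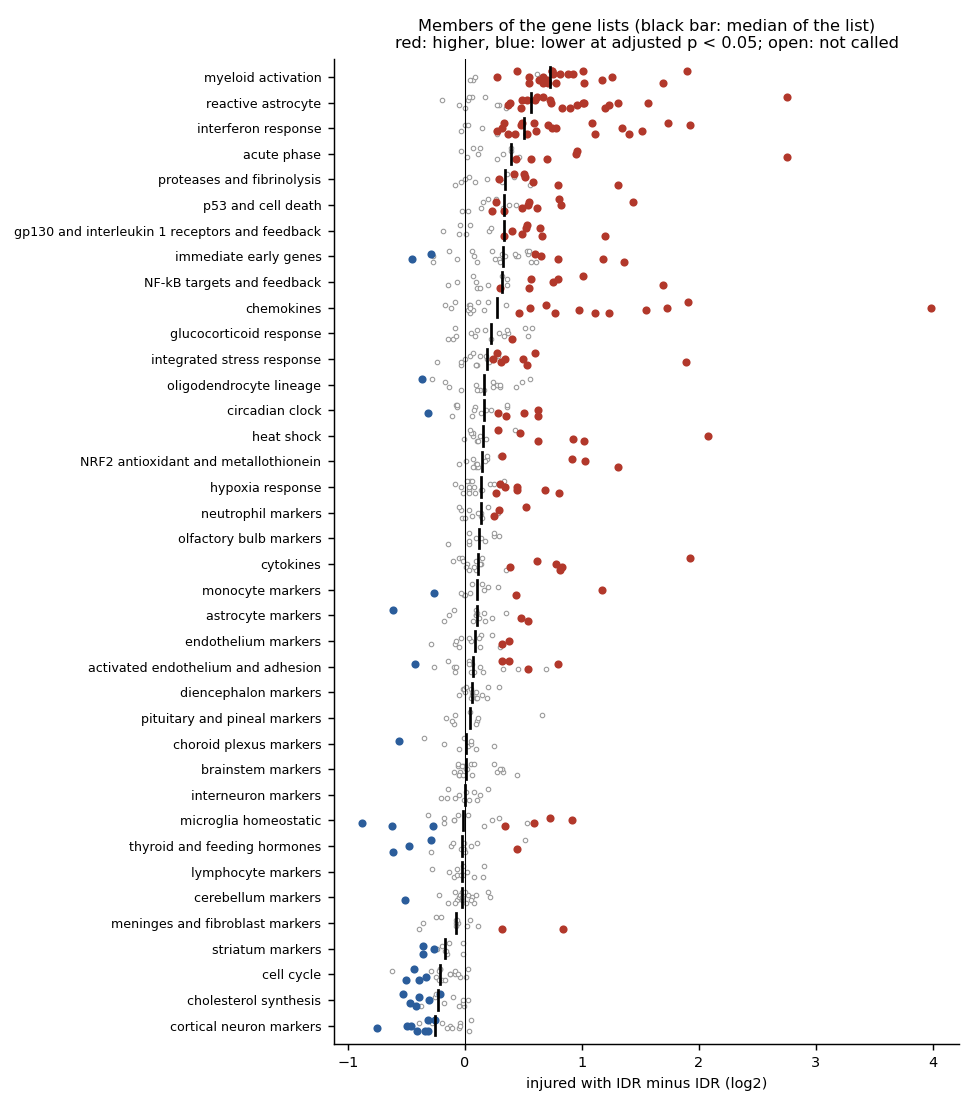
Log2 differences of the injured hemisphere with IDR minus IDR (x axis) are drawn for every measured member of the 38 gene lists (rows, ordered by median), with higher calls in red, lower calls in blue, members not called as open circles and the list median as a black bar. Myeloid activation, reactive astrocyte and interferon lists have medians of 0.72, 0.56 and 0.51, and cortical neuron markers are at the bottom at -0.26.

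Neurod6, a transcription factor of cortical excitatory neurons, had 9.60, 9.10, 9.87, 9.85 and 9.06 in the injured hemisphere with IDR, against 10.35, 10.21, 9.97, 10.20 and 10.52 in IDR. The highest injured arrays came within about 0.1 of the lowest IDR array. Its fall was -0.75 ± 0.16 (adjusted p = 0.0166), and with Xist as a covariate it was -0.58 with an adjusted p of 0.0514. Of 19 cortical neuron markers, 8 fell and 0 rose, with a median of -0.26. Their mean level was 9.74 to 9.83 across the injured arrays and 10.03 to 10.04 across the IDR arrays, with no overlap. Tafa1 fell by 0.50 on the log2 scale and the deep-layer regulator Fezf2 by 0.41, with standard errors of 0.06 for each. The glutamate transporter Slc17a7 and the kinase Camk2a differed by -0.11 and -0.05 and were not called. The count was 9 without the 3 arrays high in ribosomal protein genes, where lower calls over all genes rose from 469 to 852. It was 7 with Xist as a covariate, and 5 without injured replicate 1 and without IDR replicate 2. In the striatal list 3 of 11 fell and 0 rose, led by the phosphodiesterase Pde10a (-0.36 ± 0.06) and the receptor Gpr6 (-0.36 ± 0.07). Interneuron markers gave 0 calls of 12, with differences from -0.21 to 0.19. Syndig1, a synapse protein, fell by 0.58 on the log2 scale.

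Hs3st5, a heparan sulfate sulfotransferase, had 8.00, 7.92, 7.97, 8.16 and 8.05 in the injured hemisphere with IDR, against 8.65, 8.78, 8.63, 8.95 and 8.67 in IDR. Both groups spread little, and the fall was -0.72 ± 0.07. The matrix genes Hmcn1, Tnc and Has3 fell by 0.66, 0.61 and 0.57, and all 77 probe sets of Hmcn1 were below 0, from -0.85 to -0.12. The organic anion transporters Slc22a8 and Slc22a6, neighbours on chromosome 19, fell by 0.64 and 0.59, and the iron exporter Slc40a1 by 0.63. Opn3 and Chml, which overlap on chromosome 1, fell by 0.74 and 0.63, and their probes may share transcripts. Trpa1 and Rxfp1 fell by 0.66 and 0.59.

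Cholesterol synthesis genes fell in 6 of 16 cases with 0 higher, among them Nsdhl (-0.47 ± 0.07) and Sqle (-0.40 ± 0.06). Hmgcs1, an early enzyme of the pathway, fell by 0.21 on the log2 scale, and Insig1, which restrains it, differed by -0.02 without a call. Cell cycle genes fell in 4 of 21 cases with 0 higher, such as Mki67 (-0.50 ± 0.09) and Aurkb (-0.33 ± 0.06). The lower count ran from 3 to 10 over the alternatives in each of these lists. The cholesterol and cell cycle medians were -0.23 and -0.21 in the injured hemisphere with IDR against IDR. In the uninjured hemisphere with IDR against IDR they were -0.16 and -0.17, with 0 calls. Between hemispheres they were -0.13 and -0.03. Clock genes gave 5 higher and 1 lower of 18, with the repressors Nr1d1 and Bhlhe41 both higher by 0.63, and Per2 and Arntl at -0.07 and -0.11 without a call. The clock median was 0.16 in the injured and 0.15 in the uninjured hemisphere with IDR against IDR, and -0.01 between hemispheres. Glucocorticoid-responsive genes gave 1 call of 17, Tsc22d3 (0.40 ± 0.07). That is near the 5.87% of all genes called and is no result about the list. Without the 3 arrays high in ribosomal protein genes 5 were higher, where higher calls over all genes also rose from 702 to 1205. The glucocorticoid median was 0.22 in the injured and 0.16 in the uninjured hemisphere with IDR against IDR, and 0.03 between hemispheres. Thyroid and feeding genes gave 1 higher and 3 lower of 14, and 1 lower without IDR replicates 1, 2, 3 or 4. The higher gene was Angptl4, also in the hypoxia list, whose call was lost under 13 of 21 alternatives.

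Counts for markers of brain regions are read against the 5.87% of all genes called, and in lists this short a count near that share is no result about the piece of tissue taken. Cerebellar markers averaged 7.39 to 7.49 in the injured hemisphere with IDR and 7.42 to 7.49 in IDR, with 1 of 20 called, Neurod1 (-0.51 ± 0.10), which other neurons also express. Brainstem markers averaged 6.39 to 6.54 in the injured hemisphere with IDR and 6.28 to 6.49 in IDR with 0 calls of 21. There were also 0 calls among 16 diencephalic, 10 olfactory bulb and 9 pituitary and pineal markers. Choroid plexus markers gave 1 lower of 10, Sostdc1 (-0.56 ± 0.08), meningeal markers 2 higher of 14, and the oligodendrocyte lineage 1 lower of 17, Pdgfra (-0.37 ± 0.08). The meningeal count was 1 without injured replicates 1, 2 or 3 and without IDR replicates 1, 2 or 4. Endothelial markers gave 2 higher of 14, Pecam1 and Cdh5, whose calls were lost under 12 and 6 of 21 alternatives. The endothelial count was 0 with Xist as a covariate, without injured replicate 5 and without IDR replicates 1, 3 or 4, and 1 without injured replicates 1 or 2 and without IDR replicate 2. Activated endothelium gave 4 higher and 1 lower of 20, and 2 higher with Xist as a covariate, without injured replicate 5 and without IDR replicates 1, 3 or 4.

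Set against the opposite hemisphere of the same treatment, the injured hemisphere with IDR had 358 genes higher (1.8%) and 140 lower (0.702%), with the arrays taken as unpaired. These counts were unstable to single arrays, with 185 to 393 higher and 45 to 122 lower when each of the 10 arrays was left out. The higher count was 220, 232 and 194 without injured replicates 1, 2 and 5, and 185, 228, 228 and 225 without uninjured replicates 1, 3, 4 and 5. The lower count was 59, 91, 90 and 72 without injured replicates 1, 2, 3 and 5, and 45, 78, 90 and 86 without uninjured replicates 1, 2, 3 and 5. Centring on the array median gave 256 higher and 225 lower.

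Ccl3 averaged 11.13 ± 0.60 in the injured and 7.04 ± 0.29 in the uninjured hemisphere with IDR (SD, n = 5 each), a difference of 4.08. Hspa1a, Lilrb4a, Atf3 and Emp1 differed by 2.02, 1.95, 1.94 and 1.88 between the hemispheres, the next largest of the higher calls. Neurod6, the primary microRNA Mir128-1, Syndig1, Spink8 and Htr2a were the lowest of the genes named, from -0.77 to -0.61. For cortical neuron markers 7 of 19 were lower in the injured than in the uninjured hemisphere, and for reactive astrocyte genes 14 of 30 were higher. Chemokines had 10 of 24 higher and myeloid activation genes 10 of 26. Integrated stress response genes had 7 of 23 higher and p53 and cell death genes 7 of 19. NF-kB targets had 6 of 17 higher, proteases and their regulators 6 of 18, heat shock genes 5 of 16 and cytokines 5 of 20. Some other lists called against IDR had few calls between hemispheres. Interferon-stimulated genes had 2 of 26 higher and acute phase genes 1 of 16, with 0 lower in both lists. Homeostatic microglial, cholesterol synthesis and cell cycle genes gave 0 calls. Hmox1, Osmr and Gadd45b were higher by 1.24, 1.09 and 1.40 in the injured hemisphere.

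In the uninjured hemisphere with IDR, 36 genes (0.181%) were higher and 4 (0.0201%) lower than in IDR. This comparison uses the same 5 IDR arrays, so its values stand beside those of the injured hemisphere and no overlap is drawn from them. Without the arrays high in ribosomal protein genes the counts were 11 and 1. The higher count was 19, 23, 23 and 63 without uninjured replicates 1, 2, 3 and 4, and 19, 18, 20 and 23 without IDR replicates 1, 2, 3 and 4. The lower count was 2 without uninjured replicate 3 and without IDR replicates 1, 4 and 5 in turn. The higher genes included acute phase, interferon and microglial genes. Lcn2 averaged 7.85 ± 0.44 in the uninjured hemisphere with IDR (SD, n = 5), 1.94 above IDR, and the injured hemisphere lay a further 0.81 above it (adjusted p = 0.0467). Ifitm3 was 1.45 above IDR in the uninjured hemisphere, and the hemispheres differed by 0.29 with an adjusted p of 0.648. Ms4a6c, Ly86 and Rtp4 were 1.02, 0.98 and 0.92 above IDR in the uninjured hemisphere, with differences of 0.15, 0.12 and 0.24 between hemispheres, none called. C1qb, a complement subunit, was 0.75 above IDR in the uninjured hemisphere and 0.16 apart between hemispheres, without a call. Knstrn, Defb11, Cenpf and Bgn were the 4 lower genes, from -0.53 to -0.40.

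**Figure D4:**
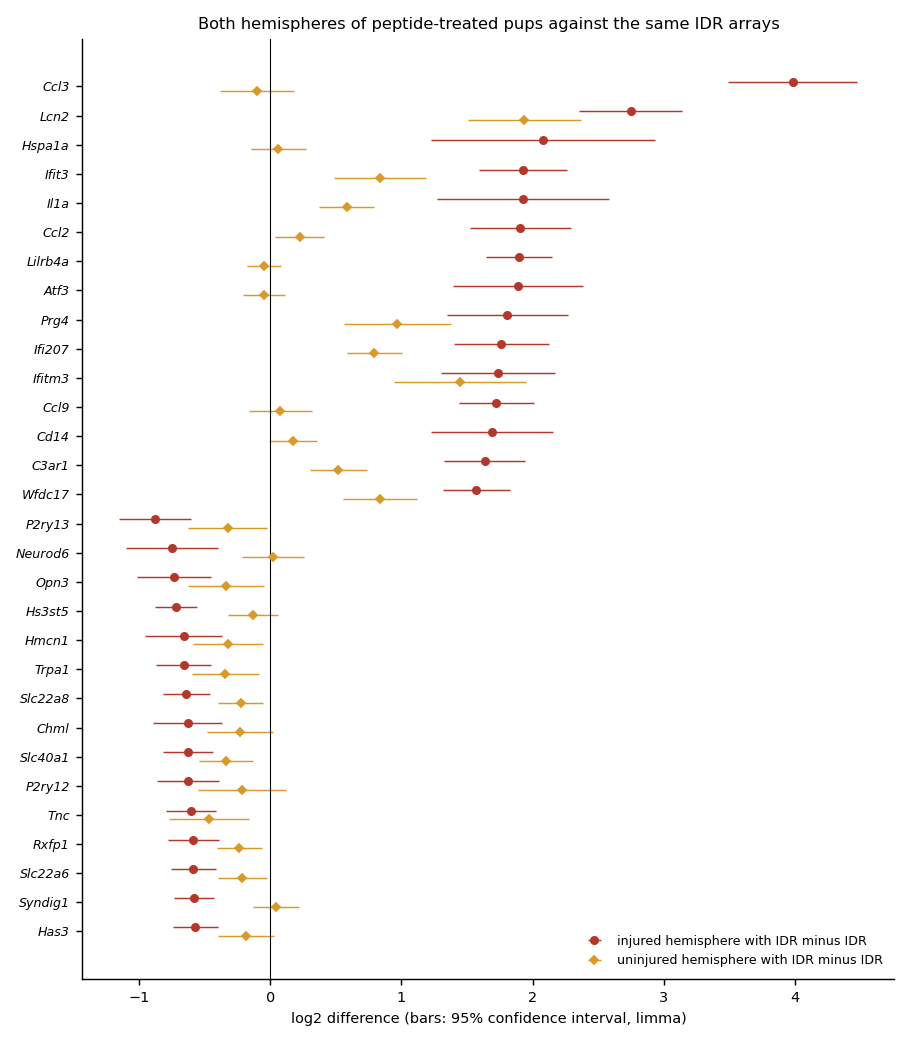
Log2 differences from IDR (x axis, bars are 95% confidence intervals of limma) are drawn for the 15 genes named for the largest rise and the 15 for the largest fall (rows) in the injured (red circles) and the uninjured (amber diamonds) hemisphere with IDR. Ccl3, Hspa1a, Lilrb4a and Atf3 have uninjured values between -0.10 and 0.06, while Lcn2 and Ifitm3 have 1.94 and 1.45.

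The 702 higher genes had a median difference of 0.41 between the injured hemisphere with IDR and IDR, of 0.08 between the uninjured hemisphere with IDR and IDR, and of 0.31 between the hemispheres. For the 469 lower genes the medians were -0.32, -0.08 and -0.25. These genes were chosen on the injured arrays, so the medians are descriptions. Some named genes had a pattern of their own: Tnc was 0.47 lower in the uninjured hemisphere than in IDR and 0.14 lower in the injured than in the uninjured hemisphere, neither called.

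Whether the insult shifted genes by another amount with the peptide than without it was tested as the injured hemisphere with IDR minus IDR, less the injured hemisphere without peptide minus Vehicle, over 20 arrays. By limma 0 genes (0%) were called in this difference, the smallest adjusted p was 1, and 287 (1.44%) had an unadjusted p under 0.05. For Ccl3 the insult difference was 0.39 larger with the peptide, with a 95% interval from -0.23 to 1.02. The injured hemisphere means were 11.13 with IDR and 10.94 without peptide, against 7.14 in IDR and 7.35 in Vehicle. For Lcn2 the difference of differences was -0.12 (-0.73 to 0.48), for Hspa1a 0.32 (-0.80 to 1.43) and for Ifitm3 0.04 (-0.56 to 0.64). Tighter intervals were found for P2ry13 at -0.02 (-0.36 to 0.33), Lilrb4a at 0.04 (-0.29 to 0.37) and Fezf2 at 0.04 (-0.14 to 0.21). A missing call does not show equal effects, and the median 95% half-width over all genes was 0.24. The 287 genes are fewer than evenly spread p-values would put under 0.05, and why was not tested. Their low number does not show equal effects either. The 3 genes with the smallest p were Olfr338 (-0.51), Olfr1314 (0.43) and Prame (0.38), none past the threshold, with mean signals of 3.78, 4.07 and 4.91 in the injured hemisphere with IDR. Across all 38 lists 0 members were called. Replicate 3 of the injured hemisphere without peptide had both high Xist and Y-linked signal, and leaving it out also gave 0 calls.

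**Figure D5:**
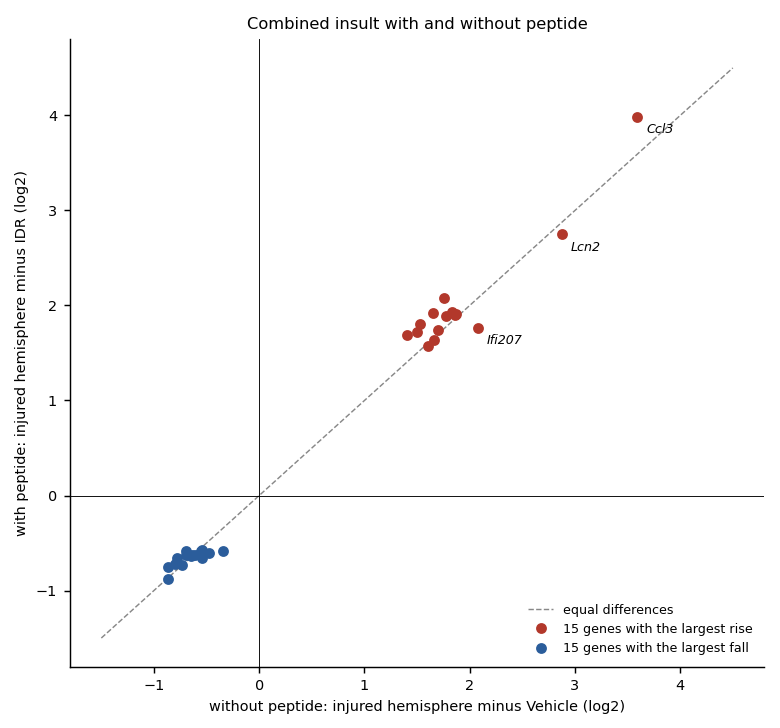
The log2 difference of the injured hemisphere with IDR minus IDR (y axis) is plotted against that of the injured hemisphere without peptide minus Vehicle (x axis) for the 15 genes named for the largest rise (red) and the 15 for the largest fall (blue), chosen on the y axis, with a dashed line where the differences are equal. Ccl3 lies 0.39 above the line and Ifi207 0.32 below it, and none of the 30 was called for its distance from the line.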

How the data were processed

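The deposited values are log2 signals, 1 per probe set and array, made by the authors with RMA from the affy package, per the submitters' processing notes, which give no version. RMA background-corrects, quantile normalises and summarises probes, which takes out array-wide shifts. Of 34760 probe sets, 21640 carried 1 gene symbol, 1321 several and 11799 none in the platform annotation. Symbols were updated by gene ID to RefSeq GRCm38.p6 (21553 probe sets matched), and the probe set with the highest mean over 40 arrays was kept for each of 19937 genes, with no signal filter. Groups were compared with limma 3.58.1 (lmFit, eBayes) in R 4.3.3, with the data.table package (1.17.8), and Benjamini-Hochberg adjustment over all genes. The method was tested on simulated data. With 5 arrays a group the median 95% half-width of a difference was 0.17, and the number of arrays is among the limits of that precision.

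The genes named were the 15 highest and 15 lowest called differences with groups that did not overlap, up to 4 called members of each list (2 by p where none was called), and up to 5 a direction in the other comparisons, passing over clone names, predicted genes, Xist and Y-linked genes. Other genes named, such as list members given as not called, Vim, C1qa, Nr4a2, Egr3, Hmgcs1, Ifit3b and Lilr4b, were chosen after their values were seen. The members and the 38 lists were chosen with earlier results of these data known. Alternatives were the arrays in the fit, a signal filter, scaling, probe set averaging, the variance model, Xist, the replicate number, each array left out and, added after seeing the data, the ribosomal protein level.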

Additional observations from a re-analysis of the deposited data

Results flagged for a closer look

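Among 256 groups of 5 arrays checked for the 128 genes described, 14 (5.47%) held an array set far from the others, and chance gives about 1 in 20. IDR replicate 5 accounted for 6 of them: it was the highest for Ifitm3 (9.04, next 8.19) and the lowest for P2ry13 (8.86, next 9.27), Opn3 (8.92, next 9.41), Gadd45b (7.69, next 7.81), Esm1 (5.52, next 5.76) and Thrb (8.58, next 8.92). It is the IDR array high in ribosomal protein genes, and the part of that in these values was not tested. In the injured hemisphere with IDR, replicate 5 was the highest for Cck (10.86, next 10.58), Tph2 (7.33, next 6.47) and Gh (8.07, next 6.58). Replicate 2 was the highest for Lilrb4a (8.28, next 7.70) and the lowest for Gpr6 (8.72, next 8.84), replicate 1 was the highest for Neurod1 (8.62, next 8.27), and replicate 3 was the lowest for Esm1 (6.11, next 6.28). IDR replicate 3 was the highest for Gh (6.80, next 6.10).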

How the results depend on the processing

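The 30 leading genes were chosen as the largest called differences with groups that did not overlap. Leaving out 1 array could therefore not reverse them, and much of their stability was fixed in advance. Of 630 recomputed values (these genes under 21 alternatives), 627 kept direction and call, 3 lost the call and 0 reversed. Of 116 called genes named, 81 lost no call under any alternative run, 35 lost it under at least 1, and 15 under 6 or more. Counts moved more. Against IDR, one fit to all 8 groups gave 1120 higher and 789 lower in the injured hemisphere with IDR, centring on the median 739 lower, a ribosomal block 1649 and 1269, the ribosomal level as covariate 1823 and 1495, leaving out the 3 arrays high in ribosomal protein genes 1205 and 852, and a 1.5-fold minimum 197 and 16. Leaving out each array gave 456 to 784 higher and 241 to 506 lower. Of the 1171 calls, 1171 were shared under the ribosomal block and 750 with Xist as covariate. Between hemispheres the same settings gave 893 higher and 539 lower (8 groups), 693 and 390 (Xist), 805 and 473 (ribosomal block), 1261 and 821 (ribosomal covariate), with 225 lower after centring, 78 lower without the arrays high in ribosomal protein genes, and 185 to 393 higher and 45 to 122 lower leaving out each array. For the uninjured hemisphere with IDR against IDR they gave 55 and 12 (8 groups), 17 higher (Xist), 11 and 1 (without the arrays), and 18 to 63 and 2 to 4 leaving out each array. The cause of these moves was not tested. The insult difference with and without peptide gave 0 calls under every alternative run, with 141 to 564 genes at an unadjusted p under 0.05 where all arrays were kept and 890 without the arrays high in ribosomal protein genes.

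The replicate number as a block gave 362 higher and 136 lower against IDR, sharing 490 of the calls, and 593 higher and 301 lower between hemispheres. It left 2 cortical neuron markers lower and 0 endothelial markers higher against IDR. Same-numbered arrays correlated in their deviations at -0.43 to 0.22 against IDR and at 0.09 to 0.59 between hemispheres, where 3 of 5 correlated best with their own number and all 5 matched in Xist and Y-linked signal, a hint from the data of shared animals. Since 2 of these 5 were under 0.1 and the labels name no shared animal, the numbers were not taken as pairs.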
